A study of Mus musculus with 63 samples.

Results

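The 9 genes described here belong to the submembrane cytoskeleton: the adducins Add1, Add2 and Add3, the protein 4.1 genes Epb41, Epb41l1, Epb41l2 and Epb41l3, and the spectrins Sptan1 and Sptbn1. They were chosen by symbol, 9 of the 55291 symbols listed, and all 9 were counted in every library. The genes were picked with earlier results of these data known, and the values that led to their choice are not recorded, so the differences below describe these genes and counts over the 9 support no statement about them as a group.

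Spectrin forms long flexible rods from an alpha and a beta chain, and these rods lie under the plasma membrane as a lattice whose nodes are short actin filaments. Adducin caps the fast-growing end of the filaments and brings spectrin to them, while proteins of the 4.1 family strengthen the contact of spectrin with actin and tether the lattice to membrane proteins. In neurons the lattice runs as evenly spaced rings along axons and dendrites, and it also reaches into dendritic spines.

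Entorhino-hippocampal slice cultures were prepared on postnatal day 3 to 5 from mice of either sex and kept for at least 18 days. The cultures were C57BL/6J (Synpo+/+) or carried the back-crossed allele B6.129-Synpotm1Mndl/Dllr (labelled Synpo-/-), a line deficient for synaptopodin, the actin-binding protein of the spine apparatus. The entorhinal cortex was cut off (entorhinal cortex lesion, ECL), which removes the perforant path input to the hippocampus, and tissue was taken 3 days later or from cultures without the lesion. For 39 libraries the dentate gyrus (DG) or CA3 was dissected from 1 culture each. Of these, Synpo+/+ gave 2 control and 3 lesioned CA3 libraries and 4 control and 7 lesioned DG libraries. Cultures labelled Synpo-/- gave 6 control and 6 lesioned CA3 libraries and 7 control and 4 lesioned DG libraries. For 24 libraries, RNA recovered by co-immunoprecipitation with an anti-synaptopodin antibody (Synpo-coIP) was compared with an aliquot of the precleared lysate (input), with 5 to 6 whole cultures pooled per sample: 5 non-lesioned and 5 lesioned Synpo+/+ samples and 2 samples labelled Synpo-/-, the background control of the precipitation, for which the labels give no lesion status. A dissected region holds neurons, glia and vessel cells together, so fewer cells of a type and less RNA per cell cannot be told apart.

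The libraries held 14055930 to 46043990 counts in the dissected regions and 11601154 to 53682143 in the coIP experiment, and the 9 genes together took 0.160 to 0.228% and 0.138 to 0.359% of them. Levels are given as normalised CPM (each count relative to the scaled library total, by TMM) within each experiment, so levels of the dissected and the coIP libraries were normalised separately. The reads assigned to Synpo itself were not lower in the libraries labelled Synpo-/-, with 32.3 to 71.1 CPM in their dissected regions against 21.1 to 36.9 CPM in Synpo+/+. The part of the gene that the allele removes is not given in the sources used here, so a count over all exons does not check the genotype. Prox1, which marks granule cells of the DG, reached 120 CPM or more in every DG library but one and stayed at 12.7 to 44.0 CPM in CA3. The exception was Synpo+/+ DG lesioned replicate 5, with 15.5 CPM against 170 to 217 CPM in the other 6 libraries of its group. This library is labelled DG but lacks the granule cell level of Prox1. The differences and calls of the 9 genes, their correlations and most list counts below are therefore also given without it. Counts of non-overlapping libraries, medians, marker sums, values under other settings and single genes outside the 9 are given with it.

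The genes lie on 8 chromosomes of GRCm38 and have long merged exons, from 6380 bp in Add3 to 17492 bp in Sptbn1. Epb41 (chr4:131923413-132075321, minus strand) and Add3 (chr19:53140443-53247399, plus strand) are the ones whose levels moved most between groups, and Sptan1 (chr2:29965560-30031451, plus strand) and Sptbn1 (chr11:30099395-30268175, minus strand) are the ones that differed most between coIP and input. Their promoters are printed below because these 4 genes carry the results. Each is the RefSeq window on GRCm38.p6 from 250 bases before to 50 bases after a transcript start, 5′ to 3′ on the gene's strand. Where RefSeq lists several starts, the one with the most GC boxes is shown. Capitals mark the GC box (GGGCGG, or CCGCCC on the other strand) and the cyclic AMP response element (TGACGTCA, the same on both strands).
Add3, chr19:53142506-53142805, plus strand: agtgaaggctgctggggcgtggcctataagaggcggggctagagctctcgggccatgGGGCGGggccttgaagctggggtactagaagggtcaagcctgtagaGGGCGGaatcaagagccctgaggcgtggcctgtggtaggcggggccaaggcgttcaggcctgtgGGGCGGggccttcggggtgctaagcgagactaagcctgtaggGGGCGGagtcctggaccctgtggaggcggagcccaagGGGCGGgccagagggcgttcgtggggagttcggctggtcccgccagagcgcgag
Epb41, chr4:132075264-132075563, minus strand: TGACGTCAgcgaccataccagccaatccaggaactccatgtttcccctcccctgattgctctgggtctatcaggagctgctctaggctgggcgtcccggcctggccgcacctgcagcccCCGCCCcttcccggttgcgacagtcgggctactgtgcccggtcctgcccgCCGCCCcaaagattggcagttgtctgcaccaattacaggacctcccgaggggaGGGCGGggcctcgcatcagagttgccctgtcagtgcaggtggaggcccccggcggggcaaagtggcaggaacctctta
Sptan1, chr2:29965310-29965609, plus strand: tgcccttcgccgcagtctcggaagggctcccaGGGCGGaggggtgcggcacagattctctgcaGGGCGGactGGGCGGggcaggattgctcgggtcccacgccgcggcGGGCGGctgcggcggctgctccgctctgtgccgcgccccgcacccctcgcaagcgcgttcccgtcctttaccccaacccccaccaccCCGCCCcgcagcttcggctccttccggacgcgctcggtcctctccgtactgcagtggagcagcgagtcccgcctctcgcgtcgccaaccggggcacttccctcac
Sptbn1, chr11:30198208-30198507, minus strand: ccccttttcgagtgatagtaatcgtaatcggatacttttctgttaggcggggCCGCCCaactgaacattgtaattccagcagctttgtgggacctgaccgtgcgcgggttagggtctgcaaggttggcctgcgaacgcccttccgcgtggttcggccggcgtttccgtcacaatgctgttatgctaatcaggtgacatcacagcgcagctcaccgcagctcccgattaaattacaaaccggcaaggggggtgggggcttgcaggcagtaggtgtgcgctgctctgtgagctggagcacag

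All 9 genes matched RefSeq, with 18 promoter windows in all. The GC box was found in 11 of the 18 windows, on either strand, and in 35.7% of 32851 mouse promoters of the same length. The Add3 and Sptan1 windows held 5 GC boxes each, the Epb41 window 3 and the Sptbn1 window 1. The cyclic AMP response element occurred in the Epb41 window alone among the 18, against 1.79% of all promoters. The letters TATAAA were found in 1 of the 18 windows, at another start of Add3, and in 13.6% of all promoters. The letters GCGTGGGCG, bound by EGR factors, were in none of the 18 and in 0.612% of all promoters, and TTCNNNGAA, bound by STAT factors, was in 1, at a start of Epb41l1, and in 8.3% of all promoters. These matches describe letters in a window and not binding.

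Per kilobase of exon, gamma-adducin (Add3) was the most abundant of the 9 in the dissected tissue, and protein 4.1R (Epb41) the least. The median level over the 39 dissected libraries was 75.3 CPM per kb for Add3, 35.3 for beta-II spectrin (Sptbn1), 20.2 for alpha-II spectrin (Sptan1) and 14.8 for alpha-adducin (Add1). Beta-adducin (Add2), protein 4.1N (Epb41l1), protein 4.1G (Epb41l2) and protein 4.1B (Epb41l3) lay close together, at 6.54, 6.43, 6.10 and 5.72 CPM per kb. Epb41 stood below them at 1.62 CPM per kb. The 12 input libraries of whole cultures had the same 4 genes at the top in another order, with medians of 60.1 CPM per kb for Add3, 27.3 for Add1, 25.4 for Sptbn1 and 23.3 for Sptan1, and the lowest again for Epb41 at 1.33. The spread over the dissected libraries was widest for Epb41, from 7.78 to 55.8 CPM, and for Add3, from 293 to 803 CPM. Sptbn1 ranged from 482 to 749 CPM and Sptan1 from 218 to 371 CPM.

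**Figure D1:**
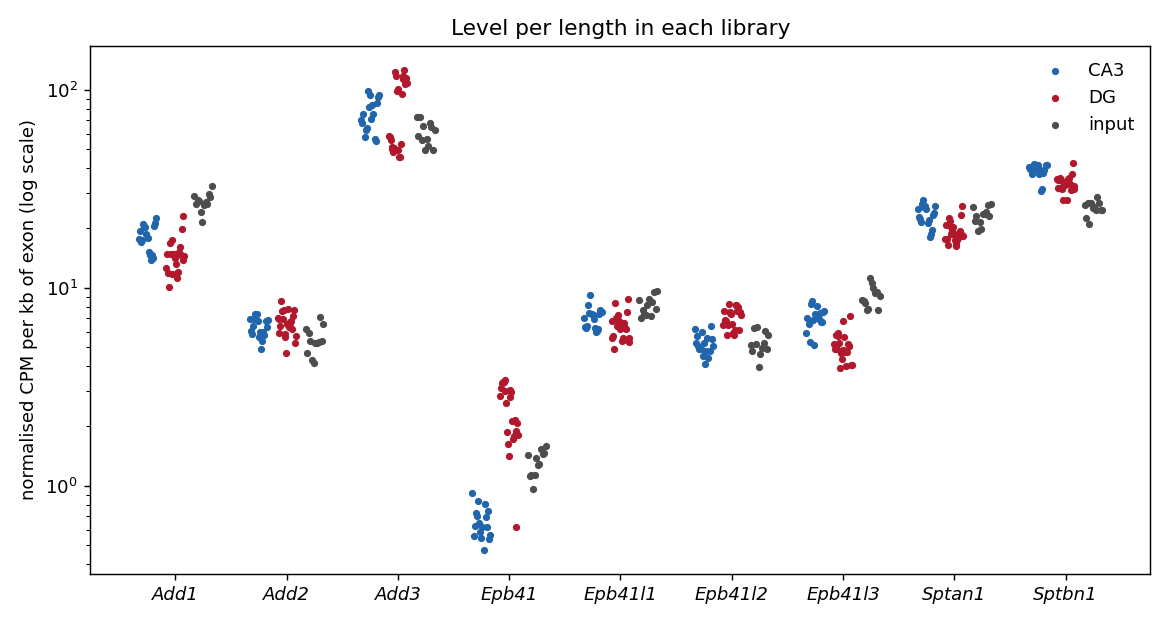
Level of each gene in each library, as normalised CPM per kb of exon on a log scale; blue points are CA3 libraries, red points DG libraries and grey points whole-culture input libraries. Add3 lies highest in all 3 and its DG points form an upper and a lower cloud, Epb41 lies lowest, and its DG points sit above its CA3 points except for 1 library at 10.1 CPM.

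After the lesion Add3 rose in the DG of both genotypes and Epb41 fell in DG labelled Synpo-/-, while the spectrins did not pass the test in any of the 4 lesion comparisons. Among the adducins, which cap actin filaments, Add3 had the largest difference. In Synpo+/+ DG, Add3 stood at 317, 293, 293 and 340 CPM in the 4 control libraries and at 610, 724 and 803 CPM (lowest, median and highest) in the 7 lesioned ones. No lesioned library overlapped the controls. The log2 difference was 1.17 ± 0.112 (SE, 95% interval 0.94 to 1.41), a 2.25-fold rise with an adjusted p of 2.92e-05 in edgeR's quasi-likelihood test, and 1.17 without replicate 5 (adjusted p = 2.21e-06). In DG labelled Synpo-/-, the 7 control libraries ranged from 310 over a median of 327 to 372 CPM and the 4 lesioned ones held 784, 747, 627 and 640 CPM. The groups again did not overlap, and the log2 difference was 1.00 ± 0.0935 (SE, adjusted p = 8.67e-06, edgeR).

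In CA3 the 2 Synpo+/+ control libraries held 361 and 353 CPM of Add3 and the 3 lesioned ones 547, 589 and 603 CPM, without overlap. The log2 difference of 0.60 ± 0.111 (SE) gave an adjusted p of 0.0372 in edgeR. With 2 controls this call was fragile: it remained in 1 of the 5 fits that left out a library, namely without control replicate 2. The adjusted p was 0.0823 without control replicate 1 and 0.0686, 0.158 and 0.0569 without lesioned replicates 1, 2 and 3. In CA3 labelled Synpo-/-, the 6 control libraries ranged from 368 over a median of 421 to 482 CPM and the 6 lesioned ones from 453 over 527 to 625.1 CPM. These ranges overlapped, and the log2 difference of 0.35 (95% interval 0.15 to 0.54) did not pass the test (adjusted p = 0.322, edgeR).

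The test of the difference between regions was run for Add3 as for all genes. In cultures labelled Synpo-/-, the lesion difference of Add3 was larger in DG than in CA3 by 0.64 on the log2 scale (SE 0.138, 95% interval 0.35 to 0.92, adjusted p = 0.0190, edgeR), where 1.12% of all genes were called. Without DG lesioned replicate 2 it was 0.60 with an adjusted p of 0.0523. In Synpo+/+ the same contrast was 0.52 with an adjusted p that rounds to 1.0, and 0.54 without DG replicate 5 (adjusted p = 0.413). There edgeR called 0 of 27783 genes, with a smallest adjusted p of 0.509 over the whole table and 1 member at an unadjusted p under 0.05, so a call for Add3 in 1 genotype and not in the other shows no difference between them. The lesion differences did not pass the test of a difference between genotypes in either region, with -0.28 for Add3 in CA3 (95% interval up to 0.08) and -0.21 in DG (up to 0.08), taken as labelled Synpo-/- minus Synpo+/+. Without Synpo+/+ DG replicate 5 the values of the 9 in DG ranged from -0.30 to -0.13, and 0 were called. No other member passed the region test in edgeR. In the genotype test 0 of the 9 were called in either region, beside 0.0% of all genes in CA3 and 0.00381% in DG. At an unadjusted p under 0.05 there were 1 and 0 members, and DESeq2 called Add1 in CA3 (adjusted p = 0.0354) and 0 in DG. In edgeR Add1 was at -0.67 in CA3 (adjusted p = 0.138).

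Microglia and astrocyte markers rose with Add3 in DG. Of 10 microglia markers, 10 were called higher after the lesion in Synpo+/+ DG and 8 in DG labelled Synpo-/-, against 2 and 0 in CA3. Of 10 astrocyte markers, 7 and 8 were called higher in DG and 0 in either CA3 comparison. Without Synpo+/+ DG replicate 5 these counts were 10 and 9 in Synpo+/+ DG. Oligodendrocyte markers were called higher in 1 of 9 cases in each DG comparison (2 in Synpo+/+ without replicate 5). In CA3 labelled Synpo-/- 2 of 9 were called lower. Add3 was at 0.35 there, not called, and the median log2 differences of microglia, astrocyte and oligodendrocyte markers were -0.14, -0.09 and -0.70. In Synpo+/+ CA3 these medians were 0.58, 0.23 and -0.01. The summed microglia markers of the DG libraries ranged from 444 to 609 CPM in control and from 1141 to 1475 CPM in lesioned Synpo+/+ cultures, and from 532 to 1162 and from 1163 to 1611 CPM in those labelled Synpo-/-. The summed astrocyte markers ranged from 4737 to 5496 CPM in control and from 7352 to 9426 CPM in lesioned Synpo+/+ DG, and from 5071 to 5972 and from 7793 to 9947 CPM in DG labelled Synpo-/-. In DG the control and lesioned sums did not overlap for either list in either genotype. No microglia or astrocyte marker was at 0 in all libraries of a group. The part of glial RNA in the Add3 difference was not tested.

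Protein 4.1R (Epb41), which stabilises the contact of spectrin and actin, had the largest difference between DG and CA3 of the 9 in each of the 4 regional comparisons. In Synpo+/+ controls the 2 CA3 libraries held 11.3 and 10.1 CPM and the 4 DG libraries 50.0, 46.0, 48.6 and 34.9 CPM. The groups did not overlap, and the log2 difference of 2.08 ± 0.187 (SE) corresponds to a 4.23-fold higher level in DG (adjusted p = 1.97e-05, edgeR). In controls labelled Synpo-/-, CA3 ranged from 9.17 over a median of 11.7 to 14.96 CPM and DG from 46.6 over 53.8 to 55.8 CPM, again without overlap (log2 difference 2.23 ± 0.106, SE, adjusted p = 4.68e-11). In lesioned cultures labelled Synpo-/- the difference was 1.62 ± 0.174 (adjusted p = 2.26e-05). In lesioned Synpo+/+ it was 1.55 ± 0.308 (adjusted p = 0.0303) with DG replicate 5, which lay at 10.1 CPM among the CA3 libraries, and 1.68 without it (adjusted p = 3.07e-07). Leaving out any other library of that comparison, of CA3 or DG, gave adjusted p-values of 0.0574 to 0.167. Granule cell markers moved the same way, with 5 of 5 called higher in DG in 3 of the comparisons and 4 of 5 in lesioned Synpo+/+ (5 without DG replicate 5), and their part in the Epb41 difference was not tested.

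The lesion difference of Epb41 in DG was negative in both genotypes. In DG labelled Synpo-/- the 4 lesioned libraries held 42.9, 30.5, 26.6 and 23.0 CPM, all below the lowest of the 7 controls at 46.6 CPM, and Epb41 fell by 0.81 on the log2 scale (SE 0.135, adjusted p = 0.00146, edgeR). In Synpo+/+ DG the lesioned libraries ranged from 10.1 over 29.4 to 35.1 CPM and reached the lowest control at 34.9 CPM. The log2 difference of -0.70 (95% interval -1.20 to -0.19) missed the threshold (adjusted p = 0.0634). Without replicate 5, whose 10.1 CPM lies at the CA3 level of the gene, it was -0.57 with an adjusted p of 0.00366. In CA3, where the gene is near its lowest level, Epb41 had log2 differences of -0.19 in Synpo+/+ and -0.23 in cultures labelled Synpo-/-, neither called, with overlapping libraries. No granule cell marker of 5 was called lower after the lesion in either DG comparison. Without Synpo+/+ DG replicate 5, 2 of the 5 were called higher and 0 lower in Synpo+/+ DG. Of 9 neuron markers, 1 was called lower in DG labelled Synpo-/- and 0 in Synpo+/+ DG. The part of either list in the lesion difference of Epb41 was not tested.

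**Figure D2:**
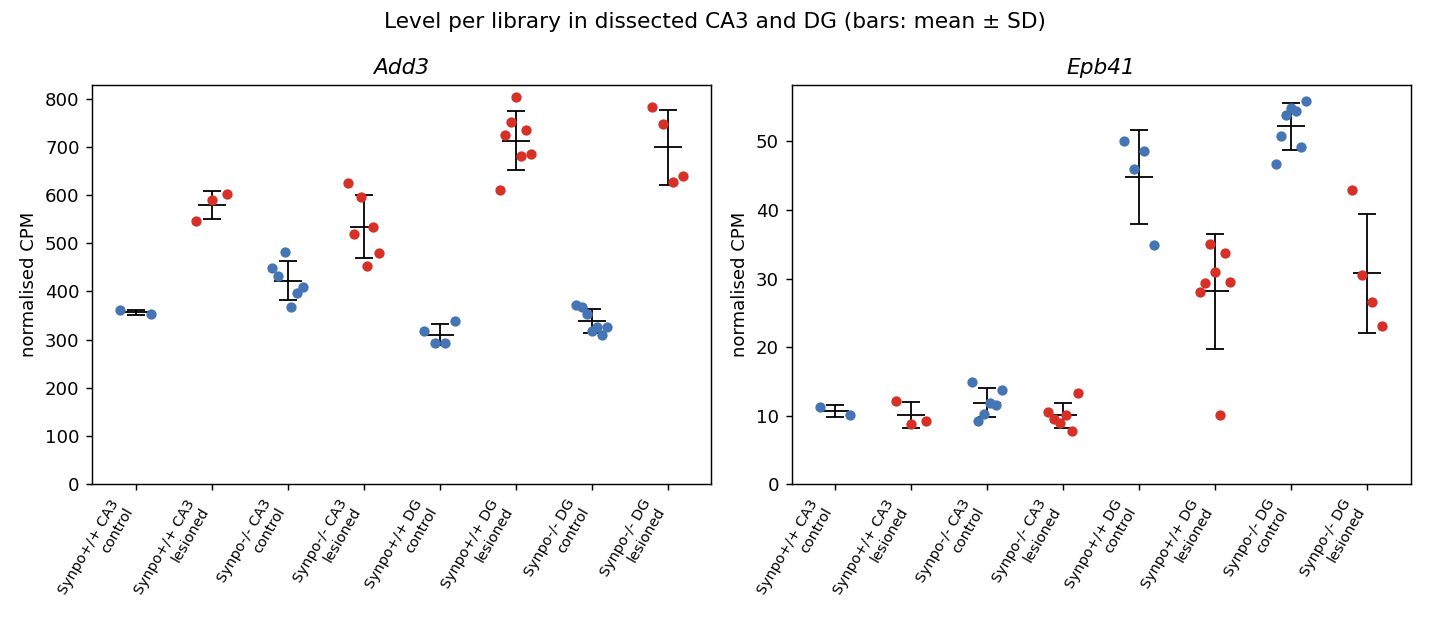
Normalised CPM of Add3 (left) and Epb41 (right) in each of the 39 dissected libraries, blue for control and red for 3 days after ECL, with bars for the mean ± SD of each of the 8 groups. Add3 is higher in lesioned than in control DG of both genotypes without overlap, and Epb41 is higher in DG than in CA3 with 1 lesioned Synpo+/+ DG library at the CA3 level.

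Counted over the 9 genes, the lesion calls were 1 higher in Synpo+/+ CA3 (Add3), where 1.78% of all genes were called and 1.5% called higher, and 2 higher in Synpo+/+ DG (Add1 and Add3), where 12.2% were called and 7.86% called higher. Without Synpo+/+ DG replicate 5 there were 3 higher (Add1, Add3 and Epb41l2) and 1 lower (Epb41), beside 13.8% of all genes. There were 0 in CA3 labelled Synpo-/-, where 0.077% were called, with 1 of the 9 at an unadjusted p under 0.05 in edgeR and 0 called by DESeq2, and 1 higher and 2 lower in DG labelled Synpo-/-, where 8.53% were called, 5.17% higher and 3.36% lower. The libraries of the groups did not overlap for 7, 3, 0 and 3 of the 9 in the 4 comparisons, beside 46.8%, 11.7%, 0.419% and 8.01% of all genes, so the groups of 2 and 3 libraries in Synpo+/+ CA3 separate many genes. The median log2 difference of the 9 was 0.19, 0.20, -0.07 and -0.02 in this order, beside -0.01, -0.00, 0.00 and 0.01 over all genes tested. The lesion comparison and the region comparison of a genotype share libraries.

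Alpha-adducin (Add1), the common partner of the other adducins, stood at 112, 96.2, 102 and 103 CPM in control and at 118 over 129 to 197 CPM in lesioned Synpo+/+ DG. The groups did not overlap, with a log2 difference of 0.44 ± 0.132 (SE, adjusted p = 0.0430, edgeR), and the call was lost without any 1 of the 4 controls or of lesioned replicates 1 to 4 (adjusted p 0.0540 to 0.121). Without replicate 5 it was 0.33 (adjusted p = 0.0352, edgeR). In Synpo+/+ CA3 it held 125 and 120 CPM in control and 176, 183 and 194 CPM after the lesion, with a difference of 0.48 that missed the threshold (adjusted p = 0.0597). In cultures labelled Synpo-/- the differences were -0.16 in CA3 and 0.17 in DG, with overlapping libraries. Beta-adducin (Add2), the more restricted partner, was not called in any lesion comparison and differed by 0.08, -0.09, -0.13 and -0.29 in Synpo+/+ CA3, Synpo+/+ DG, and CA3 and DG labelled Synpo-/-. Without Synpo+/+ DG replicate 5 the second was -0.15 (adjusted p = 0.314), and without lesioned replicate 1 the last was -0.43 (adjusted p = 0.0383).

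Protein 4.1B (Epb41l3), a scaffold at cell contacts and axons, fell in DG labelled Synpo-/-, from 63.5 over a median of 68.8 to 77.2 CPM in the 7 controls to 51.1, 60.6, 57.1 and 63.4 CPM in the 4 lesioned libraries. All lesioned libraries lay below the controls, but narrowly, and Epb41l3 fell by 0.31 on the log2 scale (SE 0.0918, adjusted p = 0.0434, edgeR). The call was lost in 8 of the 11 fits without 1 library, namely without control replicates 1, 3, 5 or 6 or any lesioned replicate (adjusted p 0.0584 to 0.166). It was also lost in 4 of 6 other settings, with no filter (0.168), removal of the length trend (0.101) or of the length and GC trends (0.0789) and in 1 common fit (0.322). In Synpo+/+ DG the difference was -0.10 (adjusted p = 0.675) with replicate 5, which was the highest of its group at 93.3 CPM, and -0.21 without it (adjusted p = 0.252). Protein 4.1G (Epb41l2), the broadly expressed member of its family, held 77.2, 69.5, 68.5 and 71.9 CPM in control and 72.2 over 90.0 to 96.7 CPM in lesioned Synpo+/+ DG, a log2 difference of 0.29 (adjusted p = 0.0742). Replicate 5 gave the 72.2 CPM, and without it the difference was 0.32 with an adjusted p of 0.0171. Protein 4.1N (Epb41l1), the neuronal member, differed by 0.20, 0.20, 0.05 and 0.03 in the same order as Add2 and was not called. Its second value was 0.10 without replicate 5 (adjusted p = 0.490).

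The spectrins, which form the rods of the lattice, did not pass the test. Sptan1 differed by 0.25, 0.23, -0.08 and -0.02 and Sptbn1 by 0.14, 0.04, -0.05 and -0.14 on the log2 scale, with adjusted p-values of 0.165 or more. In Synpo+/+ DG the 95% interval for Sptbn1 reached up to 0.28 and that for Sptan1 up to 0.47. Sptan1 stood at 235, 224, 218 and 233 CPM in control and at 243 over 252 to 347 CPM in lesioned Synpo+/+ DG, so its libraries did not overlap although it was not called. Without replicate 5 Sptan1 was at 0.15 (adjusted p = 0.254) and Sptbn1 at -0.03 (adjusted p = 0.856) in Synpo+/+ DG.

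**Figure D3:**
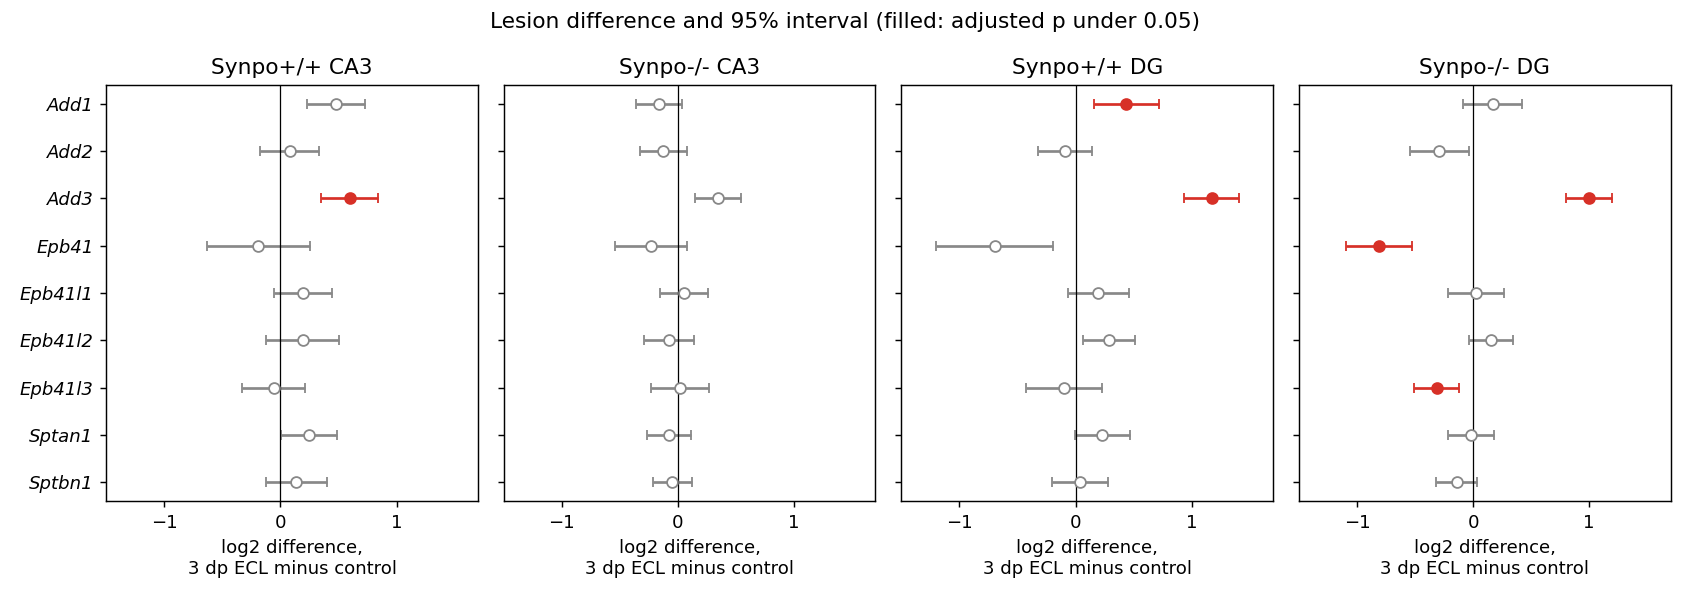
Log2 difference between lesioned and control libraries for the 9 genes in each region and genotype, with 95% intervals from edgeR; filled red points have an adjusted p under 0.05. Add3 lies right of 0 in all 4 panels and is called in 3, Epb41 lies left of 0 in all 4 and is called in DG labelled Synpo-/-, and the intervals of both spectrins cover 0 except that of Sptan1 in Synpo+/+ CA3.

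Besides Epb41, other members differed between the regions. In Synpo+/+ controls Epb41 was the only one of the 9 called, where 5.39% of all genes were. In lesioned Synpo+/+ it was also the only one, beside 2.05% of all genes, and without DG replicate 5 there were 6 (Epb41, Add1, Add3, Epb41l2, Epb41l3 and Sptan1), beside 19.8%. The values of the other 5 were then -0.41, 0.36, 0.50, -0.58 and -0.28 (adjusted p 6.97e-04 to 0.0480), against -0.30, 0.37, 0.48, -0.46 and -0.20 with it. In cultures labelled Synpo-/- 5 of the 9 were called in controls and 4 after the lesion, beside 25.5% and 13.6% of all genes. The libraries of DG and CA3 did not overlap for 6, 1, 3 and 4 of the 9 in these comparisons, beside 27.6%, 5.08%, 11.2% and 12.4% of all genes. The single one in lesioned Synpo+/+ was Add3. Epb41l2 was higher in DG, with 57.8 over 61.1 to 72.9 CPM in CA3 and 68.1 over 80.5 to 90.8 CPM in DG of controls labelled Synpo-/- (log2 difference 0.43, adjusted p = 5.3e-04) and 0.62 after the lesion (adjusted p = 0.00144). Epb41l3 was lower in DG after the lesion, where CA3 ranged from 67.1 over 92.8 to 106 CPM, by 0.63 on the log2 scale (adjusted p = 0.00297), and in controls it was at -0.26 (adjusted p = 0.0506), a difference that 5 of 6 other settings called (adjusted p 0.0153 to 0.0327). Sptbn1 was at -0.05 and -0.17 in control and lesioned Synpo+/+ (-0.25 without DG replicate 5, adjusted p = 0.0543) and at -0.14 and -0.28 in cultures labelled Synpo-/-. It was not called in edgeR, but 4 of 6 other settings called the third of these, DESeq2 among them (adjusted p = 0.0124). Add2 was at 0.23, 0.03, 0.20 and -0.00 in the same order and Epb41l1 at -0.10, -0.12, -0.02 and -0.09, none of them called, and without DG replicate 5 the second values were -0.03 and -0.22.

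Add3 changed the sign of its regional difference with the lesion in cultures labelled Synpo-/-, being lower in DG by -0.21 in controls (adjusted p = 0.0470) and higher by 0.40 after the lesion (adjusted p = 0.0308). Neither call was firm, since the first was lost without any 1 of 8 libraries (adjusted p 0.0513 to 0.132) and the second without any 1 of 6 (0.0533 to 0.106). In Synpo+/+ the order changed too. Add3 was lower in DG than in CA3 in controls (293 to 340 against 353 to 361 CPM). It was higher in DG after the lesion (610 to 803 against 547 to 603 CPM). Neither Synpo+/+ difference was called in edgeR with all libraries, and the second was called without DG replicate 5 (0.36, adjusted p = 0.0168). Add1 was lower in DG of controls labelled Synpo-/- by -0.41 (145 over 158 to 179 CPM in CA3 and 86.0 over 107 to 144 CPM in DG, adjusted p = 0.00294). Sptan1 was lower by -0.23 (adjusted p = 0.0386) and lost the call without any 1 of 7 libraries (adjusted p 0.0593 to 0.0969). Oligodendrocyte markers were lower in DG of the same controls in 9 of 9 cases and neuron markers in 5 of 9, and their part in these differences was not tested.

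Between genotypes none of the 9 genes was called, in CA3 or DG, before or after the lesion. The log2 differences, labelled Synpo-/- minus Synpo+/+, ranged from -0.09 to 0.33 in control CA3, from -0.31 to 0.05 in lesioned CA3, from -0.00 to 0.19 in control DG and from -0.20 to 0.10 in lesioned DG (-0.11 to 0.07 without Synpo+/+ DG replicate 5, with 0 called). Over all genes 1, 2, 4 and 4 were called (0.00413%, 0.00891%, 0.0166% and 0.0166%), so the tables as a whole gave hardly any genotype call in edgeR. At an unadjusted p under 0.05 there were 2, 1, 0 and 0 members, and DESeq2 called 0. The largest was Add1 in control CA3, with 125 and 120 CPM in the 2 Synpo+/+ and 145 over 158 to 179 CPM in the 6 other libraries, without overlap (log2 difference 0.33, adjusted p = 0.179, 95% interval up to 0.57).

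In the Synpo-coIP, the spectrin transcripts had the largest differences from input among the 9 genes. Sptan1 held 265, 318, 316, 322 and 352 CPM in the 5 non-lesioned Synpo+/+ inputs and 684, 639, 807, 782 and 819 CPM in the coIPs of the same replicate numbers. In lesioned cultures the inputs held 345, 290, 310, 259 and 287 CPM and the coIPs 687, 742, 714, 771 and 651 CPM. Neither set overlapped, and Sptan1 was 2.40-fold and 2.42-fold higher in the coIP, at log2 differences of 1.27 ± 0.0981 and 1.28 ± 0.101 (SE, adjusted p = 3.46e-07 and 1.51e-06, edgeR). Sptbn1 held 441, 447, 433, 501 and 469 CPM in the non-lesioned inputs and 981, 1218, 989, 1182 and 1168 CPM in the coIPs. After the lesion its inputs held 456, 393, 468, 365 and 471 CPM and its coIPs 1087, 797, 1054, 759 and 1079 CPM. The log2 differences were 1.29 ± 0.0874 and 1.16 ± 0.125 (adjusted p = 2.33e-07 and 5.94e-06, edgeR). The fits behind the coIP values did not pair coIP and input of a lysate, unless a block is named.

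The spectrins were also higher in the coIP of cultures labelled Synpo-/-. Sptan1 went from 354 and 308 CPM in input to 590 and 619 CPM in samples 1 and 2, a log2 difference of 0.84 ± 0.135 (adjusted p = 9.31e-04, edgeR). Sptbn1 went from 434 and 433 CPM to 963 and 867 CPM, a difference of 1.05 ± 0.133 (adjusted p = 3.14e-04). The labels number these inputs in both orders, so the pairs of input and coIP are uncertain. The spectrins were the only 2 of the 9 called there, where 31.4% of all genes were. The test of a different coIP effect between genotypes used the non-lesioned Synpo+/+ samples only. It gave 0 calls among the 9 and 0 among all genes in edgeR. At an unadjusted p under 0.05 there were 2 of the 9, and DESeq2 called 0 of the 9. For Sptan1 the difference, labelled Synpo-/- minus Synpo+/+, was -0.38 (95% interval -0.74 to -0.02) and for Sptbn1 -0.20 (-0.52 to 0.13). The libraries labelled Synpo-/- in this test held 42886994 to 53682143 counts and the Synpo+/+ ones 12888443 to 26730691. Genotype and depth can therefore not be told apart in it.

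Protein 4.1N (Epb41l1) and beta-adducin (Add2) followed. Epb41l1 held 98.5, 105, 86.7, 102 and 115 CPM in the non-lesioned Synpo+/+ inputs and 173, 178, 170, 200 and 203 CPM in the coIPs, a log2 difference of 0.89 ± 0.0918 (SE, adjusted p = 2.27e-06), and the lesioned samples gave 0.94 ± 0.0864 (adjusted p = 2.58e-06), neither with overlap. In cultures labelled Synpo-/- it went from 116 and 94.3 CPM to 139 and 123 CPM, a difference of 0.28 that was not called (adjusted p = 0.160), and the genotype difference was -0.56 (95% interval -0.92 to -0.19, adjusted p = 0.519). Add2 held 42.1, 53.4, 53.3, 53.8 and 72.1 CPM in the non-lesioned inputs and 75.6, 72.1, 104, 102 and 109 CPM in the coIPs, with 1 coIP at the level of the highest input. Its log2 difference was 0.77 ± 0.148 (adjusted p = 4.91e-04), 0.83 ± 0.153 in lesioned samples (adjusted p = 3.65e-04) and 0.22 in those labelled Synpo-/- (adjusted p = 0.255).

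The remaining members had smaller differences. In non-lesioned Synpo+/+ they were 0.50 for Add3, 0.44 for Epb41, 0.33 for Add1, 0.32 for Epb41l2 and 0.29 for Epb41l3, and in lesioned samples 0.28, 0.59, 0.27, 0.34 and 0.36. All were called (adjusted p 0.00367 to 0.0284) except Add3 in lesioned samples (adjusted p = 0.114), which was called with the replicate number as a block (0.26, adjusted p = 0.0270) and without coIP lesioned replicate 4 (0.38, adjusted p = 0.0236). Thus 9 of 9 were called higher in non-lesioned and 8 of 9 in lesioned Synpo+/+ coIPs, beside 29.6% and 30.5% of all genes called higher (55.0% and 58.3% in either direction). The weakest calls changed with single libraries or settings, although the replicate number as a block kept them on the counts as deposited. Epb41l2 in non-lesioned samples was lost without input replicate 1, 2 or 3 or coIP replicate 4 or 5 (adjusted p 0.0563 to 0.0778) and in DESeq2 (0.0505). Epb41l3 was lost there without input replicate 4 or 5 or coIP replicate 1 (0.0587 to 0.0869), in DESeq2 (0.0619) and with no filter (0.0503), and Add1 in lesioned samples without input replicate 2, 4 or 5 or coIP replicate 2 (0.0530 to 0.0725) and with no filter (0.116).

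**Figure D4:**
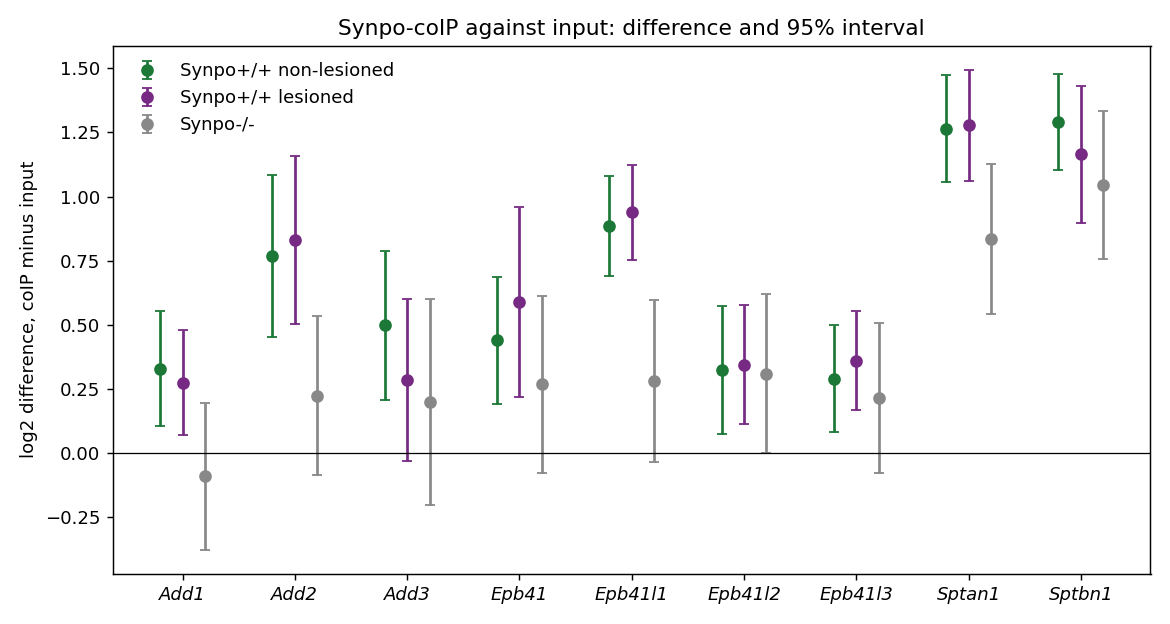
Log2 difference between Synpo-coIP and input for the 9 genes with 95% intervals from edgeR, in green for non-lesioned Synpo+/+, purple for lesioned Synpo+/+ and grey for samples labelled Synpo-/-. Sptan1 and Sptbn1 lie highest in all 3 sets, at 1.16 to 1.29 in Synpo+/+ and 0.84 to 1.05 in samples labelled Synpo-/-, and Epb41l1 and Add2 show the next highest values in Synpo+/+.

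The members are long, and the coIP difference was higher for long genes in the whole table. Among the 4157 genes with merged exons of 6380 to 17492 bp, the range of the members, 50.3% were called higher in non-lesioned Synpo+/+ coIPs, against 29.6% of all genes, whose median length was 3852 bp. In lesioned samples 50.8% of 4159 such genes were called higher and in those labelled Synpo-/- 26.6% of 4235. When the trend with length was removed, 5 of the 9 were called in non-lesioned samples (Sptan1, Sptbn1, Epb41l1, Add2 and Add3), 4 in lesioned samples (Sptan1, Sptbn1, Epb41l1 and Add2) and the same 2 spectrins in samples labelled Synpo-/-. With the trend removed, 5277 of 18222, 5548 of 18229 and 3040 of 20892 genes of the whole table were called higher, in this order. Called lower were 3724, 3836 and 2832. Sptan1 was then at 0.79 and 0.78 in non-lesioned and lesioned Synpo+/+ and at 0.51 in those labelled Synpo-/-, and Sptbn1 at 0.72, 0.56 and 0.65. Epb41l1 was at 0.46 and 0.49, and with the trend over GC content removed as well at 0.24 and 0.26 (adjusted p = 0.0303 and 0.0150). Epb41, Epb41l2 and Epb41l3 moved to slightly negative values in both Synpo+/+ sets, and Add1 did in lesioned samples.

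**Figure D5:**
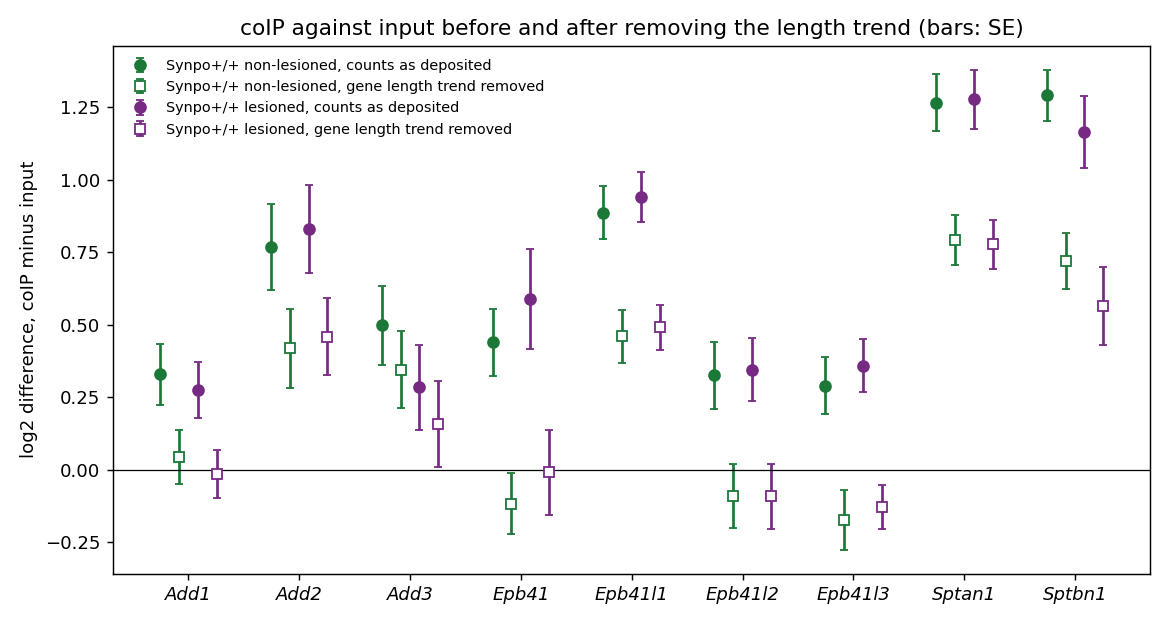
Log2 difference between coIP and input in Synpo+/+ with the counts as deposited (filled circles) and with the trend over gene length removed (open squares), with SE bars, green for non-lesioned and purple for lesioned samples. Both spectrins, Epb41l1 and Add2 stay above 0 with the length trend removed, at 0.42 to 0.79, while Epb41, Epb41l2 and Epb41l3 fall below it.

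The study subtracted the log2 difference of the cultures labelled Synpo-/- from that of Synpo+/+ and kept genes whose remaining fold change was over 1.3. Computed this way from the edgeR values, Add1, Add2, Epb41l1 and Sptan1 were kept in non-lesioned samples, with 1.34-, 1.46-, 1.52- and 1.35-fold left, and Add2, Epb41l1 and Sptan1 in lesioned samples, with 1.52-, 1.58- and 1.36-fold left. Sptbn1 was left with 1.19- and 1.09-fold. Over all genes called higher, 25.2% and 34.3% were kept. The subtraction carries no test and sets samples of unlike depth against each other. The genotype test above, which used the non-lesioned Synpo+/+ samples only, called none of the 9.

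Within whole cultures the lesion lowered 1 member. Epb41l3 held 146, 138, 130, 123 and 124 CPM in the non-lesioned and 113, 112, 109, 100 and 102 CPM in the lesioned inputs, without overlap, and fell by 0.31 on the log2 scale (SE 0.0684, adjusted p = 0.0190, edgeR), where 5.61% of all genes were called. It was the only member whose libraries did not overlap, beside 6.12% of all genes. The call was lost without lesioned replicate 3 (adjusted p = 0.0507) or control replicate 2 (0.0627). Neuron markers were lower in 3 of 9 cases in the same comparison, and their part in it was not tested. Add3, which rose in the dissected DG, ranged from 317 to 431 CPM in non-lesioned and from 357 to 464 CPM in lesioned inputs, with overlap. In the coIP itself the lesion comparison in edgeR called 0 of the 9, with differences from -0.22 (Epb41l3) to 0.19 (Epb41l2), beside 0.314% of all genes, with 0 at an unadjusted p under 0.05 and 0 by DESeq2, and no member differed between coIP and input in its lesion response (from -0.17 for Add3 to 0.19 for Epb41 on the log2 scale), where edgeR called 0 genes of the whole table, 0 members were at an unadjusted p under 0.05 and DESeq2 called 0.

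Other genes of the lattice were followed as 47 genes in 7 lists: other spectrins, other protein 4.1 genes, ankyrins, actin partners, spectrin proteolysis, anchored membrane proteins, and the ERM proteins with merlin. After the lesion 8 were called higher and 0 lower in Synpo+/+ DG, where 7.86% of all genes were called higher and 12.2% in either direction. Without replicate 5 it was 9 and 1. They included 5 of 13 actin partners, the calpain small subunit Capns1 (0.58 ± 0.105, SE, adjusted p = 0.00329), which belongs to the proteases that cut spectrin, and moesin (Msn, 0.60 ± 0.124, adjusted p = 0.00775), which links actin to the membrane. In DG labelled Synpo-/- 3 were higher and 4 lower, beside 5.17% and 3.36% of all genes, with Capns1 again higher (0.63, adjusted p = 0.00181), as was the 4.1-binding scaffold Mpp1 (0.37, adjusted p = 0.0192). The adhesion molecule Cadm2 (-0.56, adjusted p = 0.00280) and the sodium channel Scn2a (-0.40, adjusted p = 0.0173) were lower there. In CA3 the calls were 0 higher and 1 lower (Ank1, -1.25, adjusted p = 0.0457) in Synpo+/+ and none of the 47 in cultures labelled Synpo-/-, beside 1.78% and 0.077% of all genes.

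Between regions, the lattice calls were mostly of lower levels in DG: 4 of 47 in Synpo+/+ controls, 14 in controls labelled Synpo-/- with 5 higher, and 12 with 2 higher after the lesion in the latter. In lesioned Synpo+/+ 1 was higher and 1 lower, and 2 and 18 without DG replicate 5, beside 2.05% and 19.8% of all genes called. Without that library 1800 of 23965 genes were called higher and 2946 lower, so lower calls were also the more frequent ones over the whole table. The other shares are for either direction and do not show whether the same held there. Of all genes 5.39%, 25.5% and 13.6% were called in the other 3 comparisons in the order given. Neuron markers were called lower in DG in 5, 5 and 6 of 9 cases in these 3 and in 1 of 9 in lesioned Synpo+/+ (7 without replicate 5). Oligodendrocyte markers were lower in 6, 9 and 2 of 9, and in 0 in lesioned Synpo+/+ (8 without replicate 5). Their part in the lattice calls was not tested. The lower lattice genes included the axonal sodium channel Scn8a, at -0.61 in Synpo+/+ controls (adjusted p = 0.0195) and -0.63 in controls labelled Synpo-/- (adjusted p = 1.37e-05, edgeR). This channel is held in place by ankyrin G.

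In the coIP the lists went in different directions. Of all genes tested, 5389 of 18222 were called higher in non-lesioned Synpo+/+, 5557 of 18229 in lesioned Synpo+/+ and 3138 of 20892 in samples labelled Synpo-/-. Called lower were 4642, 5063 and 3429 in this order. All 14 anchored membrane proteins were called higher in both Synpo+/+ sets and 10 of 14 in samples labelled Synpo-/-, with medians of 0.51, 0.56 and 0.50. All 3 ankyrins, the adaptors between spectrin and membrane proteins, were higher in both Synpo+/+ sets, with Ank3 at 1.05 ± 0.0754 and Ank2 at 1.08 ± 0.0864 in non-lesioned samples (SE, adjusted p = 2.52e-07 and 3.96e-07, edgeR), and 2 of 3 in samples labelled Synpo-/-. Other spectrins were higher in 3 of 5 tested cases without the lesion and in 3 of 4 with it. Of 12 actin partners tested, 9 were lower in each Synpo+/+ set and 5 in samples labelled Synpo-/-, with the tropomyosins Tpm3 at -0.79 and Tpm1 at -0.88 in non-lesioned samples. With the length trend removed, anchored membrane proteins were called higher in 8, 8 and 4 of 14 cases in non-lesioned, lesioned and labelled Synpo-/- samples, with 1 lower in each. Ankyrins were called higher in 2, 1 and 0 of 3 and other spectrins in 3 of 5, 3 of 4 and 3 of 5, and actin partners were called lower in 9, 9 and 6 of 12, with 1 higher in lesioned samples. Of all genes, 5277 of 18222, 5548 of 18229 and 3040 of 20892 were then called higher in the same order. Called lower were 3724, 3836 and 2832. Lists of 3 to 5 genes are too short to set against these counts.

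Across the 39 dissected libraries the members did not vary together as 1 set. Pearson's r between the log2 levels of the 36 pairs ran from -0.72 to 0.90 with a median of 0.27. The closest pairs were Add1 with Sptan1 (0.90), Epb41l1 with Sptan1 (0.85) and Add1 with Epb41l1 (0.84), and Sptan1 with Sptbn1 reached 0.81. Epb41l2 and Epb41l3 went in opposite directions (-0.72), as did Epb41 and Sptbn1 (-0.71). The libraries share regions, genotypes and lesion state, so these values describe the pattern over the 8 groups and carry no test. Without Synpo+/+ DG lesioned replicate 5 no r moved by more than 0.0539.

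Among 11509 genes with a mean of at least 5 CPM, the genes most like each member over the same 39 libraries differed between members. Add3 was closest to Slc14a1 (r = 0.93), S1pr3 (0.93) and Gfap (0.92), the last an intermediate filament protein of astrocytes. Epb41 was closest to Ptchd4, Mef2c and Tshz2 (0.97 each). Add1 had Rab1b (0.97), Fkbp8 (0.95) and Kif3b (0.94), and Sptan1 had Pip5k1c (0.95), Jph3 (0.94) and Grb2 (0.94). Sptbn1 was most like Dpysl2, Gmfb and Atp8a1 (0.91 each), Epb41l1 most like Gna11 (0.91), Dcaf5 (0.90) and Ncdn (0.90), and Epb41l3 most like Ube2ql1 (0.92), Kcnma1 (0.91) and Map7d2 (0.91). Epb41l2 followed Adcyap1r1 (0.88), Car12 (0.87) and Igfbp5 (0.87), and Add2 had the weakest neighbours, Agap1 (0.75), Dpp6 (0.74) and Kmt2a (0.71). Without Synpo+/+ DG lesioned replicate 5 the 3 closest genes were the same for 6 of the 9 members, and 2 of 3 were shared for Add3, Epb41l1 and Epb41l3.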

How the data were processed

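Bulk RNA-seq was measured in 63 libraries of mouse entorhino-hippocampal cultures. The deposited counts are whole reads per gene, made by the authors with cutadapt 3.5, STAR 2.7.8a on mm10 (GRCm38) and unstranded featureCounts 2.0.1 over GENCODE M25 exons, and libraries with more than 60% uniquely mapped reads were kept. Without strand, reads of a gene and an overlapping antisense gene cannot be told apart: overlaps covered 356 bp (3.5%) of the exons of Add2 and at most 0.9% of those of any other member. There were 55291 symbols, 107 of which join several gene identifiers, 0 rows without a gene name and 0 unused columns. Samples were grouped by their labels. The labels do not say which samples come from separate animals, so p-values measure only the spread between these samples. Counts of sequenced reads without molecular identifiers carry amplification error that the depth does not show.

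Each comparison was fitted on its own groups in edgeR 4.0.16 (R 4.3.3, limma 3.58.1) with TMM scaling, filterByExpr and the quasi-likelihood test, two-sided, with Benjamini-Hochberg adjustment over all genes tested, and a gene was called at an adjusted p under 0.05. Fold changes, SE and 95% intervals come from these fits. Levels are TMM-normalised CPM, log2 levels use a prior count of 2, and lengths are merged exons. Python 3.11.15 with pandas 2.3.3, numpy 2.4.6, scipy 1.17.1 and matplotlib 3.10.9 made tables and figures. On simulated data with 200 genes changed 4-fold, edgeR called 133 to 196 of them in 23 fits over 17700 to 25247 genes, 0 in the wrong direction. Up to 14 unchanged genes were called in a fit. The simulation gave all genes the same dispersion, so it does not measure how well smaller differences such as those of the members are found.

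The members and gene lists were chosen with earlier results of these data known. All 9 members were tested in every comparison, and some of their values are not reported here. Of the 7 lattice lists up to 2 genes per direction with the smallest p among those called are eligible, and for each member the 3 genes with the highest Pearson r. Some eligible genes are not reported here. Marker lists of endothelial and erythroid cells and of oligodendrocyte precursors were counted too and are summarised in the closing section.

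Alternatives were DESeq2 1.42.0, RLE size factors, no filter, the replicate number as a block, all regional groups in 1 fit, removal of trends with gene length and with GC content (lowess, span 0.3, on genes with a mean count of at least 50), and leaving out each library. The region by lesion test, the length correction with a block and the lists and correlations without Synpo+/+ DG lesioned replicate 5 were added after seeing the data. In the protocol the input is an aliquot of the lysate used for the coIP. Equal replicate numbers were taken to mean 1 lysate, which the labels do not state. The main fits did not use this pairing, which entered only where the replicate number was a block. The titles of the inputs labelled Synpo-/- carry 2 numbers in opposite orders, and the culture number, not the replicate number, was used, so their pairing is uncertain. Same-numbered coIP and input samples deviated together in Synpo+/+ (r 0.189 to 0.442 in non-lesioned and 0.105 to 0.381 in lesioned samples). Of the 5 coIPs of each set, 3 and 4 were closest to the input of their own number. In samples labelled Synpo-/- r was 0.0456, so no shared deviation was seen there.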

Additional observations from a re-analysis of the deposited data

Results flagged for a closer look

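In 5 of 90 sets of 4 to 10 libraries, taken gene by gene and group by group, a member's highest or lowest library stood apart from the others by Dixon's 95% limit, which chance passes in about 1 of 20. Of these, 3 are of the same library, Synpo+/+ DG lesioned replicate 5, in which Epb41 was lowest at 10.1 CPM (next 28.0 CPM), Epb41l2 lowest at 72.2 CPM (next 86.5 CPM) and Epb41l3 highest at 93.3 CPM (next 67.4 CPM). Its Prox1 level was 15.5 CPM and its summed granule cell markers 28.5 CPM, the lowest of the group, whose median was 402 CPM. Sptbn1 was lowest in Synpo-/- CA3 lesioned replicate 6 at 540 CPM (next 660 CPM). It was also lowest in Synpo-/- DG lesioned replicate 1, at 482 CPM (next 572 CPM).

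For Add3 the lesion difference itself differed between regions in cultures labelled Synpo-/-, by 0.64 on the log2 scale in the interaction test in edgeR. In the same test 6 of 10 microglia markers and 5 of 10 astrocyte markers were called in the same direction, and their part in the Add3 value was not tested.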

How the results depend on the processing

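Over 55 differences of single members, 952 values were recomputed under other settings or without 1 library: 789 kept their direction and side of the threshold, 93 lost the call, 53 gained one and 17 changed sign, and of 427 counts of called members 373 stayed within 1.5 times. In the lesion comparison of Synpo+/+ CA3 (1 member called), DESeq2 and no filter called 2 and both trend corrections 0. In Synpo+/+ DG (2 called), DESeq2, the replicate block and 1 fit over all regional groups called 4, and RLE scaling and both trend corrections 1. Between regions in lesioned Synpo+/+ (1 called), DESeq2 and both trend corrections called 2, 1 common fit 3 and the block 5, and in controls labelled Synpo-/- (5 called) no filter called 3 and the length and GC correction 8. For coIP against input, both trend corrections left 5 of 9 in non-lesioned and 4 of 8 in lesioned Synpo+/+, and the length correction with a block 4 of 8 in the latter. In the input lesion comparison and the region by lesion test in cultures labelled Synpo-/- (1 each) the block left 0, and DESeq2 called 1 (Add1, adjusted p = 0.0354) in the genotype by lesion test of CA3 where edgeR called 0. The labels do not say whether regional replicate numbers pair samples, and same-numbered r from -0.224 to 0.54 cannot settle it. Their block is therefore given for these counts only. The cause of these changes was not tested beyond the construction of each setting. The trend corrections moved the median of all genes by more than 0.1 in 4 of 23 comparisons each, to -0.14 in both lesion comparisons of Synpo+/+, where Add3 stood at 0.48 in CA3 (adjusted p = 0.0602).

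Signs changed in coIP against input. With length removed, non-lesioned Synpo+/+ gave -0.12 for Epb41, -0.0913 for Epb41l2 and -0.17 for Epb41l3, and with the block added -0.12, -0.0917 and -0.18 (adjusted p = 0.0225 for the last). Lesioned Synpo+/+ gave -0.0152 for Add1, -0.0095 for Epb41, -0.0918 for Epb41l2 and -0.13 for Epb41l3, and with the block -0.0176, -0.0279, -0.0916 and -0.13. With GC as well Epb41l3 was at -0.0756 and -0.0204. Add3 in samples labelled Synpo-/- was at -0.14 without coIP replicate 1 and at 0.46 without coIP replicate 2 (adjusted p = 0.0207).

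Without 1 library, called members ranged from 0 to 1, 1 to 4, 0 to 0 and 2 to 3 for the lesion in Synpo+/+ CA3, Synpo+/+ DG, and CA3 and DG labelled Synpo-/-, from 1 to 1 and 0 to 6 between regions in Synpo+/+ controls and lesioned cultures, from 3 to 6 in each of those labelled Synpo-/-, from 8 to 9, 7 to 9 and 2 to 3 for the coIP in non-lesioned, lesioned and labelled Synpo-/- samples, and from 0 to 1 for the input lesion and the region by lesion test labelled Synpo-/-. With 2 control libraries in Synpo+/+ CA3 and 2 samples per fraction labelled Synpo-/-, leaving out 1 makes the lone sample rely on the spread of the other groups.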

Other observations

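Within the coIP experiment some members split the samples of a group. Among the lesioned coIPs, replicates 2 and 4 held 399 and 351 CPM of Add3 and 797 and 759 CPM of Sptbn1, below the other 3 (544 to 655 and 1054 to 1087 CPM), and 37.0 and 34.5 CPM of Epb41 and 113 and 119 CPM of Add2, above the other 3 (20.7 to 25.3 and 75.4 to 81.9 CPM). Among the non-lesioned coIPs, replicates 1 and 3 were lowest in Add3 (394 and 418 CPM) and Sptbn1 (981 and 989 CPM) and highest in Epb41 (34.3 and 35.9 CPM). The inputs of the same replicate numbers were also the lowest of their groups in Add3, at 370 and 357 CPM in lesioned replicates 2 and 4 and 317 and 331 CPM in non-lesioned replicates 1 and 3. The labels give no batch for these samples.

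Of the remaining marker lists, oligodendrocyte precursor markers were called higher after the lesion in 3 of 5 cases in Synpo+/+ DG and 2 of 5 in DG labelled Synpo-/-. Endothelial markers were lower in 2 of 6 in Synpo+/+ DG, and no erythroid marker was called in a lesion comparison of the regions. CA3 pyramidal markers were called lower in DG in 3, 1, 4 and 4 of 5 cases in control and lesioned Synpo+/+ and in control and lesioned cultures labelled Synpo-/-, and in 4 of 5 in lesioned Synpo+/+ without DG replicate 5.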
